A study of Mus musculus with 8 samples.

Results

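The 10 genes described here are regulators and markers of formative and primed epiblast cells: Fgf5, Otx2, Pou3f1, Utf1, Tcf15, Foxd3, Lef1, Zic2, Sall2 and Sox3. They were taken by symbol from a table of 21812 genes. All 10 were found, and 9 had enough reads to be tested; Otx2 did not pass the filter on low counts. The samples are mouse embryonic stem cells cultured in a PrE-induce medium, that is, one meant to turn them toward primitive endoderm, the blastocyst lineage that later lines the yolk sac. RNA was sequenced in 8 libraries of 4 groups with 2 libraries each: Mettl3 cKO, Mettl3 WT, Virma cKO and Virma WT. Mettl3 is the methyltransferase, and Virma a large scaffolding partner, of the enzyme complex that places the m6A mark (N6-methyladenosine) on transcripts. The labels give the genotypes as Mettl3_cKO, Virma_cKO and WT. They name no strain, deleted exons, Cre driver or induction, and they do not say whether the paired libraries came from separate cultures, so p-values rest on a spread between libraries that could be technical alone.

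Pluripotent cells pass from a naive state, as in the blastocyst's inner cell mass, through a formative state to the primed state of the epiblast after implantation. FGF signalling through ERK drives the transition, and Otx2 and Pou3f1 are transcription factors known to open the enhancers of the later states. Fgf5 is a secreted growth factor and a classical marker of the post-implantation epiblast. Utf1 is a chromatin-associated protein of pluripotent cells, and Tcf15 is a basic helix-loop-helix factor known to prime embryonic stem cells for differentiation. Foxd3, Zic2, Sall2 and Sox3 are DNA-binding factors of the forkhead, ZIC, SALL and SOX families. Lef1 is a nuclear partner of β-catenin in Wnt signalling. Primitive endoderm is the alternative fate of the inner cell mass, and the levels of these genes alone do not measure that choice.

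For 6 of the 10 genes the RefSeq table used here (GRCm38.p6, another build than the mm39 named for the counts) holds a promoter. The 250 bases before the annotated start are shown for 3 of them, chosen because Utf1 was one of the most abundant members while Foxd3 and Fgf5 were scarce and differed several-fold between the control groups. Capitals mark matches on either strand to 1 of 6 motifs searched: the GC box GGGCGG, the TCF/LEF core CTTTGA, the SOX core CATTGT, the octamer ATGCAAAT, the ETS core CCGGAA and the OTX core GGATTA. The regions are chr7:139943606-139943855 for Utf1, chr4:99656049-99656298 for Foxd3 and chr5:98253934-98254183 for Fgf5, all on the + strand and 5′ to 3′.
Utf1: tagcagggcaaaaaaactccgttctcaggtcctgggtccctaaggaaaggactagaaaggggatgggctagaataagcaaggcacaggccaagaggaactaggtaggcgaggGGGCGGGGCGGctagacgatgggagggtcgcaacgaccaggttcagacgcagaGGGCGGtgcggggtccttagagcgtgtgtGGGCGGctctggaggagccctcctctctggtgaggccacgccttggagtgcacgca
Foxd3: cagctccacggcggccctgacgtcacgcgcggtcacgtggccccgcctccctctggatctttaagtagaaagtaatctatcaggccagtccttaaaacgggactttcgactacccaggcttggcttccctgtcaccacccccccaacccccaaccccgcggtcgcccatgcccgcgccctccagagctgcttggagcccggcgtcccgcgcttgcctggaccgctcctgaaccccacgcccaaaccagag
Fgf5: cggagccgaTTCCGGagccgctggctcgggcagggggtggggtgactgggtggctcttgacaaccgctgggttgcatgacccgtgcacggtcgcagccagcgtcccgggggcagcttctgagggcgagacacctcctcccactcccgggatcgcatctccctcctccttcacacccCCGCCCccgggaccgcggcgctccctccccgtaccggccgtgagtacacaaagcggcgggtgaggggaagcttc
The Utf1 window holds 4 GC boxes, counted with overlaps. The Fgf5 window holds 1 GC box and 1 ETS core, and the Foxd3 window none of the 6 motifs. Of 27025 promoters of this length, 33% hold a GC box and 12.3% an ETS core. The 3 windows are rich in G and C, at 61.6% in Utf1, 65.6% in Foxd3 and 70.8% in Fgf5, against a median of 52% over all promoters, and they hold 14, 21 and 24 CpG dinucleotides against a median of 6. The promoters not shown range more widely, at 66.4% in Lef1, 42% in Otx2 and 28% in Sall2, with 11, 6 and 0 CpG dinucleotides. A match is a description of the letters and says nothing of binding.

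The transcripts of the members differ in composition. In the GENCODE M21 annotation 5 of the 10 have a GC content above that of 99% of tested genes: Sox3 (66.4%), Tcf15 (65.8%), Foxd3 (65.1%), Pou3f1 (63.9%) and Utf1 (63.5%). Zic2 (59.9%) is at percentile 94.9. Sall2 (53.2%), Fgf5 (47.0%), Otx2 (46.8%) and Lef1 (46.1%) lie nearer to the median of 50.2%. Tcf15, with 980 bases, and Utf1, with 1227 bases, are also short, at percentiles 3.62 and 6.56 of length. Foxd3, Pou3f1 and Sox3 have 1 exon, as do 2.09% of tested genes. The exons of Otx2, Pou3f1 and Lef1 overlap an annotated gene on the opposite strand, and those of Otx2 and Foxd3 one on the same strand. None of these partners has its own row in the count table, and no source used here says whether strand was used in counting, so reads of the partners cannot be told apart from those of the members.

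Total counts lay between 15568628 and 17306227 per library. Between the Virma cKO libraries the difference was smaller than sampling noise, with a chi-square of 0.914 per degree of freedom over 14680 genes, although it was 3.47 over the 505 most abundant genes. They were counted as 1 sample, and that group therefore has no SD, but both libraries' values are printed. The other pairs gave 1.31 to 2.84 over all such genes. The targeted genes do not check the labels, because a sum over a gene does not tell deleted exons from kept ones: Mettl3 stood at 34.6 ± 1.05 CPM in Mettl3 cKO and 35.5 ± 0.371 CPM in Mettl3 WT (SD, n = 2 each), and Virma at 72.3 CPM in Virma cKO and 91.0 ± 3.24 CPM in Virma WT (SD, n = 2). "cKO" and "WT" therefore mean the libraries labelled so. Mettl3 WT libraries had the fewest genes with any count, 15415 and 15452, against 16476 to 17086 in the other 6. The labelled cell type was represented: Pou5f1, the core pluripotency factor, averaged 311 to 618 CPM by group, and the summed level of 12 primitive endoderm markers was 6830 and 6820 CPM in Mettl3 cKO, 10500 and 10600 CPM in Mettl3 WT, 1610 and 1600 CPM in Virma cKO and 8290 CPM in both Virma WT libraries. In such bulk samples fewer cells of a type and less RNA per cell cannot be told apart.

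Per transcript length, the members fell into 3 tiers that held in all 4 groups. Levels here are RPKM, reads per kilobase of the longest annotated transcript, scaled for depth with TMM factors. Utf1 and Tcf15 formed the top tier. Utf1 stood at 105 ± 0.242 RPKM in Mettl3 cKO, 53.7 ± 2.64 in Mettl3 WT, 75.7 in Virma cKO and 84.6 ± 5.02 in Virma WT. Tcf15 stood at 104 ± 0.405, 55.9 ± 0.829, 47.1 and 55.4 ± 2.00 RPKM in the same groups. In both Mettl3 groups the libraries of these genes overlapped, and in both Virma groups Utf1 was the higher.

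Sox3, Zic2 and Sall2 formed the middle tier, between 3.56 and 7.98 RPKM, and their order changed with the group. In Mettl3 cKO it ran Sox3 (7.04 ± 0.196), Sall2 (5.00 ± 0.129) and Zic2 (4.33 ± 0.228), whereas in Mettl3 WT Zic2 led (5.52 ± 0.144), and Sox3 (3.66 ± 0.366) and Sall2 (3.56 ± 0.135) did not differ beyond their spread. In Virma cKO Zic2 (7.24) and Sox3 (7.17) were level and Sall2 (4.58) was lower. In Virma WT Zic2 (7.98 ± 0.0835), Sox3 (7.41 ± 0.304) and Sall2 (7.00 ± 0.358) lay close together, and the libraries of Sox3 and Sall2 overlapped. With the union of exons as length Zic2 was at 6.71 and 6.81 RPKM in Virma WT, below Sox3. Pou3f1 (0.981 to 2.89 RPKM by group), Lef1 (0.254 to 2.51), Foxd3 (0.206 to 1.03) and Fgf5 (0.192 to 1.60) formed the low tier. Pou3f1 led it in 3 groups, and Lef1 led it in Virma WT; Lef1, Foxd3 and Fgf5 did not differ beyond their spread in Mettl3 WT, nor did Foxd3 and Lef1 in Mettl3 cKO. With the union of exons as length Lef1 was at 1.02 and 1.07 RPKM in Virma WT, below Pou3f1. Otx2 was lowest of the 10 in every group, at 0.0693 to 0.219 RPKM.

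**Figure D1:**
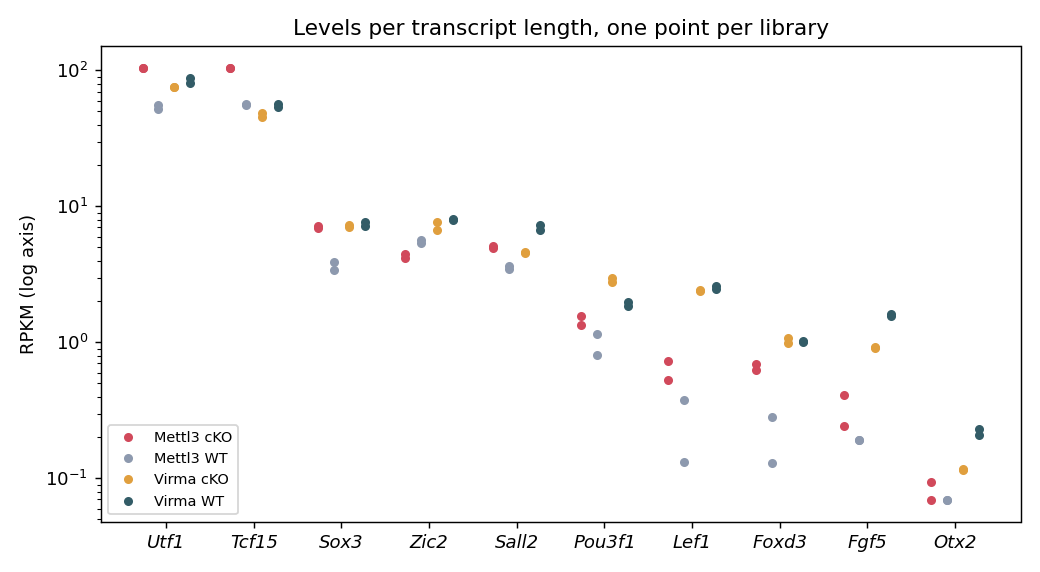
Levels of the 10 members per transcript length (RPKM, log axis), 1 point per library, coloured by group. Utf1 and Tcf15 lie between 45.7 and 105 RPKM in all libraries, Sox3, Zic2 and Sall2 between 3.40 and 8.04, and Otx2 at or below 0.230.

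The first comparison sets Mettl3 cKO against Mettl3 WT. Of the 9 members tested, 7 were higher in Mettl3 cKO and 1, Zic2, was lower, with a median log2 fold change of 0.90 against 0.01 over all 14229 genes tested. In the same comparison 55.1% of all genes tested were called, 27.1% higher and 28.0% lower (edgeR quasi-likelihood test, Benjamini-Hochberg adjusted p below 0.05 over all genes). Fold changes are log2, from edgeR, ± SE, and levels are normalised CPM, counts scaled to library depth with TMM factors.

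The abundant pair rose most clearly. Utf1 had 128 and 129 CPM in Mettl3 cKO, against 68.2 and 63.6 CPM in Mettl3 WT. Tcf15 had 102 and 103 CPM in Mettl3 cKO, against 55.3 and 54.2 CPM in Mettl3 WT. Both thus stood nearly 2-fold higher with no overlap between the pairs: the log2 fold change was 0.96 ± 0.05 for Utf1 (edgeR, adjusted p = 1.45e-13) and 0.90 ± 0.05 for Tcf15 (adjusted p = 7.96e-13). Sox3, a SOX family factor of epiblast and early neural tissue, had 14.3 and 14.8 CPM in Mettl3 cKO, against 7.01 and 8.08 CPM in Mettl3 WT, a change of similar size (0.94 ± 0.12, adjusted p = 6.84e-07, edgeR). Sall2, a zinc finger factor, changed less, with 25.3 and 26.2 CPM in Mettl3 cKO, against 18.8 and 17.8 CPM in Mettl3 WT (0.49 ± 0.09, adjusted p = 5.13e-05, edgeR).

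Of the scarce members, Foxd3, Lef1 and Pou3f1 rose, on few reads. Foxd3, a forkhead factor of pluripotent cells and neural crest, had 27 and 24 counts in Mettl3 cKO, against 5 and 11 counts in Mettl3 WT (1.67 ± 0.43, edgeR adjusted p = 0.00197). Lef1 had 32 and 44 counts in Mettl3 cKO, against 23 and 8 counts in Mettl3 WT (1.3 ± 0.35, edgeR adjusted p = 0.00286). The Mettl3 WT libraries differed almost 3-fold from each other in Lef1, and the value was 2.24 without replicate 1 of Mettl3 WT and 0.73 without replicate 2. Without replicate 2 of Mettl3 cKO it did not pass (1.05, adjusted p = 0.0658). Foxd3 stood at 2.33 without replicate 2 of Mettl3 WT. Pou3f1, a POU factor of the primed epiblast, had 6.01 and 5.20 CPM in Mettl3 cKO, against 4.44 and 3.11 CPM in Mettl3 WT (0.57 ± 0.19, edgeR adjusted p = 0.0149).

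Zic2 went the other way: it had 10.2 and 11 CPM in Mettl3 cKO, against 13.7 and 13.2 CPM in Mettl3 WT, and fell by 0.35 ± 0.11 (edgeR adjusted p = 0.0106). Fgf5 had 17 and 10 counts in Mettl3 cKO, against 8 and 8 counts in Mettl3 WT, and did not pass (0.75 ± 0.47, edgeR adjusted p = 0.183). Otx2 had 3 and 4 counts in Mettl3 cKO, against 3 and 3 counts in Mettl3 WT; a difference was not detectable at this depth. The calls of Pou3f1 (DESeq2 adjusted p = 0.102) and Zic2 (0.0845) were lost with DESeq2 and without replicate 1 of Mettl3 cKO (edgeR adjusted p = 0.141 and 0.0956), and that of Pou3f1 also without replicate 2 of Mettl3 WT (0.34, edgeR adjusted p = 0.126).

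Base composition moved with this comparison. Of the 701 tested genes in the top 5% of GC content, 51.5% were higher in Mettl3 cKO and 7.28% lower, with a median of 0.34. When a trend of counts with transcript length and GC content was removed from each library, the change of Utf1 was 0.47, of Tcf15 0.33, of Sox3 0.38 and of Foxd3 1.17, all still past the edgeR test. Pou3f1 then stood at 0.21 (adjusted p = 0.388), and Zic2 fell by 0.67. Lef1 (1.36) and Sall2 (0.46), whose transcripts are not rich in G and C, hardly moved. Genes of other cell types moved too. Primitive streak and mesoderm markers, of which 4 of 10 tested were higher and 1 lower (median 0.65), summed to 95.6 and 91.8 CPM in Mettl3 cKO, against 62.8 and 68.7 CPM in Mettl3 WT. Cdx2 was at 1.5 ± 0.17, Kdr at 0.94 ± 0.14 and Eomes at 0.65 ± 0.08, while Hand1 was lower (−0.35 ± 0.09). Of 12 primitive endoderm markers 0 were higher and 10 lower (median −0.54). Of the fibroblast markers 11 of 13 were higher and 0 lower, and their summed level was 380 CPM in both Mettl3 cKO libraries, against 207 and 225 CPM in Mettl3 WT. Their defining collagens Col1a1 and Col3a1 were at 130 and 62.4 CPM in Mettl3 cKO, against 59.5 and 28.0 CPM in Mettl3 WT. The part of such cells in these values of the members was not tested.

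**Figure D2:**
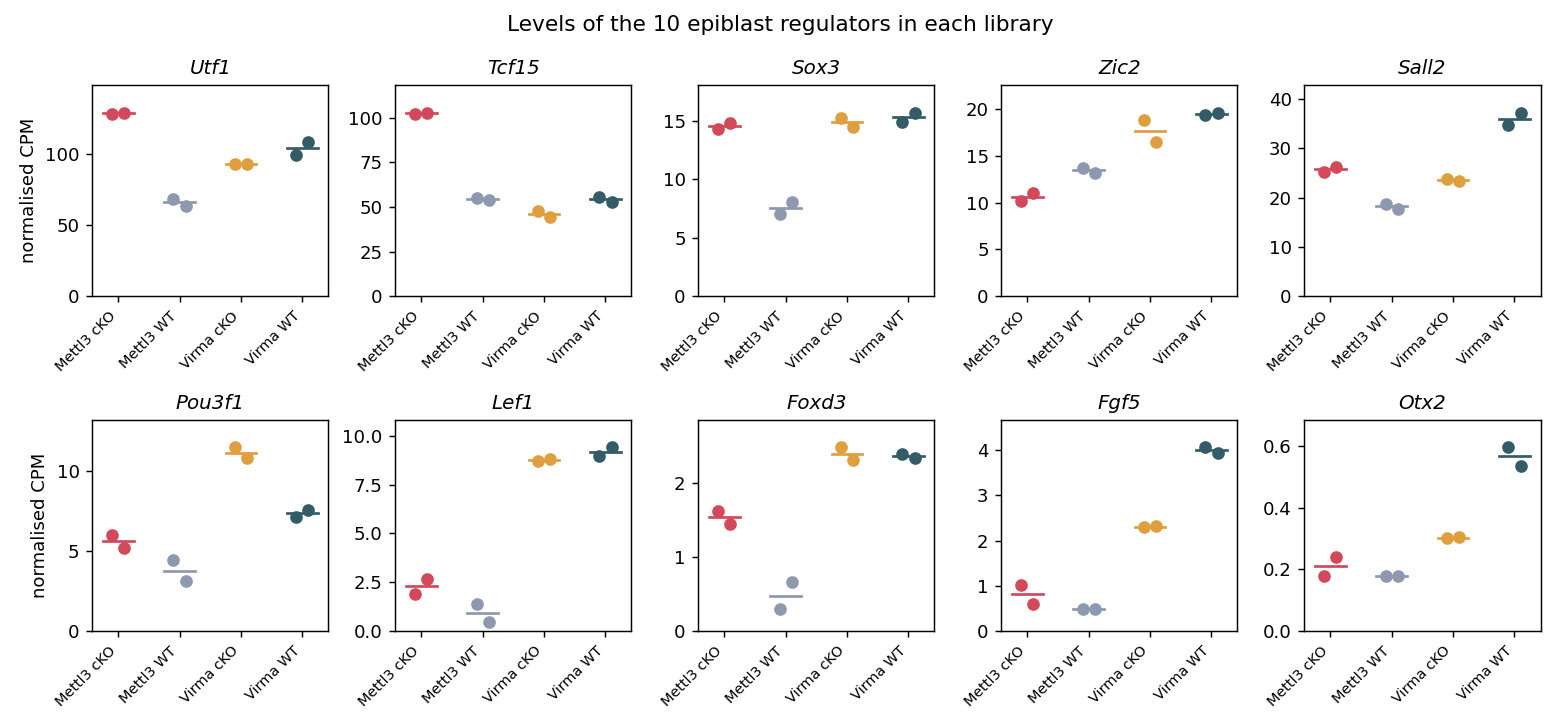
Normalised CPM of each member by group, 1 point per library, with bars at the mean and an axis from 0 in each panel. Utf1 and Tcf15 are highest in Mettl3 cKO, while Lef1, Fgf5 and Zic2 are higher in both Virma groups than in both Mettl3 groups.

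The control groups of the lines differed in most of the same genes. Tcf15 was called only in Mettl3 cKO and Fgf5 only between the controls, and Zic2 was lower in Mettl3 cKO but higher in Virma WT. Of the 9 members tested, 8 were higher in Virma WT than in Mettl3 WT and 0 lower, with a median of 0.97 against 0.03 over all genes, of which 47.6% were called, 25.4% higher and 22.2% lower. Lef1 had 150 and 158 counts in Virma WT, against 23 and 8 counts in Mettl3 WT (3.30 ± 0.27, edgeR adjusted p = 4.86e-10). Fgf5 had 68 and 66 counts in Virma WT, against 8 and 8 counts in Mettl3 WT (3.04 ± 0.35, edgeR adjusted p = 1.45e-07). Both genes were thus several-fold higher in one pair of libraries labelled WT than in the other, with no overlap.

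Foxd3 had 40 and 39 counts in Virma WT, against 5 and 11 counts in Mettl3 WT (2.28 ± 0.39, edgeR adjusted p = 4.18e-05). Sox3 had 14.9 and 15.7 CPM in Virma WT and was higher by 1.02 ± 0.12, Sall2 had 34.7 and 37.3 CPM and was higher by 0.97 ± 0.08, and Pou3f1 had 7.16 and 7.58 CPM and was higher by 0.96 ± 0.18. Utf1, with 99.5 and 108 CPM in Virma WT, was higher by 0.66 ± 0.05, and Zic2, with 19.3 and 19.6 CPM, by 0.53 ± 0.10. The exception was Tcf15, with 55.7 and 52.9 CPM in Virma WT, against 55.3 and 54.2 CPM in Mettl3 WT (−0.01 ± 0.06, edgeR adjusted p = 0.877). Otx2 had 10 and 9 counts in Virma WT, against 3 and 3 counts in Mettl3 WT, and was not tested.

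Removing the length and GC trend left all 8 calls, with Lef1 at 3.27 and Fgf5 at 3.03. The value of Lef1 was 4.24 without replicate 1 of Mettl3 WT and 2.73 without replicate 2, and that of Foxd3 2.94 without that replicate 2. The fibroblast markers differed in the same direction here, with 12 of 13 higher in Virma WT and 1 lower, and a summed level of 491 and 490 CPM in Virma WT, against 207 and 225 CPM in Mettl3 WT. Neuroectoderm markers, of a tissue in which Sox3 and Zic2 are also active, summed to 81.8 and 82.5 CPM in Virma WT, against 59.5 and 65 CPM in Mettl3 WT, and 5 of 8 tested were higher and 0 lower. Ncam1 was higher by 1.04 ± 0.14, Tubb3 by 0.27 ± 0.10 and Nes by 0.21 ± 0.08, while Hes5, too scarce to be tested, had 1 count over both Virma WT libraries and 0 in Mettl3 WT. Sox1 of the same list was at 4.47 ± 0.673 CPM in Virma WT, against 4.61 ± 0.25 CPM in Mettl3 WT. Pax6 was at 1.7 ± 0.295 CPM in Virma WT, against 1.5 ± 0.51 CPM in Mettl3 WT. Primitive streak and mesoderm markers summed to 109 and 106 CPM in Virma WT, against 62.8 and 68.7 CPM in Mettl3 WT, with 5 of 10 higher and 0 lower. The part of such cells in the members' values was not tested.

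Both Mettl3 WT libraries lay below the other 6 libraries in 7 of the 9 members tested: Fgf5, Pou3f1, Utf1, Foxd3, Lef1, Sall2 and Sox3. Of all genes tested 16.5% had this pattern. Set against Virma WT instead of Mettl3 WT, Mettl3 cKO was higher in 2 members and lower in 4, where 58.5% of all genes were called, 29.3% higher and 29.2% lower. Tcf15 was higher by 0.91 ± 0.05 (edgeR adjusted p = 5.32e-13) and Utf1 by 0.31 ± 0.05 (adjusted p = 6.34e-06). Fgf5 fell by 2.29 ± 0.32, Lef1 by 2.00 ± 0.22, Zic2 by 0.88 ± 0.11 and Sall2 by 0.49 ± 0.08, while Foxd3 (−0.61 ± 0.31), Pou3f1 (−0.39 ± 0.17) and Sox3 (−0.07 ± 0.11) did not pass (edgeR adjusted p = 0.0965, 0.0511 and 0.579). With that control and the length and GC trend removed, a setting added after the data were seen, Tcf15 alone of the 9 was higher (0.33, edgeR adjusted p = 1.56e-05), and the other 8 were lower, Utf1 by −0.19 (adjusted p = 0.00081). The direction of the Mettl3 cKO difference thus held over both controls and both scalings in Tcf15 (higher) and Zic2 (lower) among the members called.

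**Figure D3:**
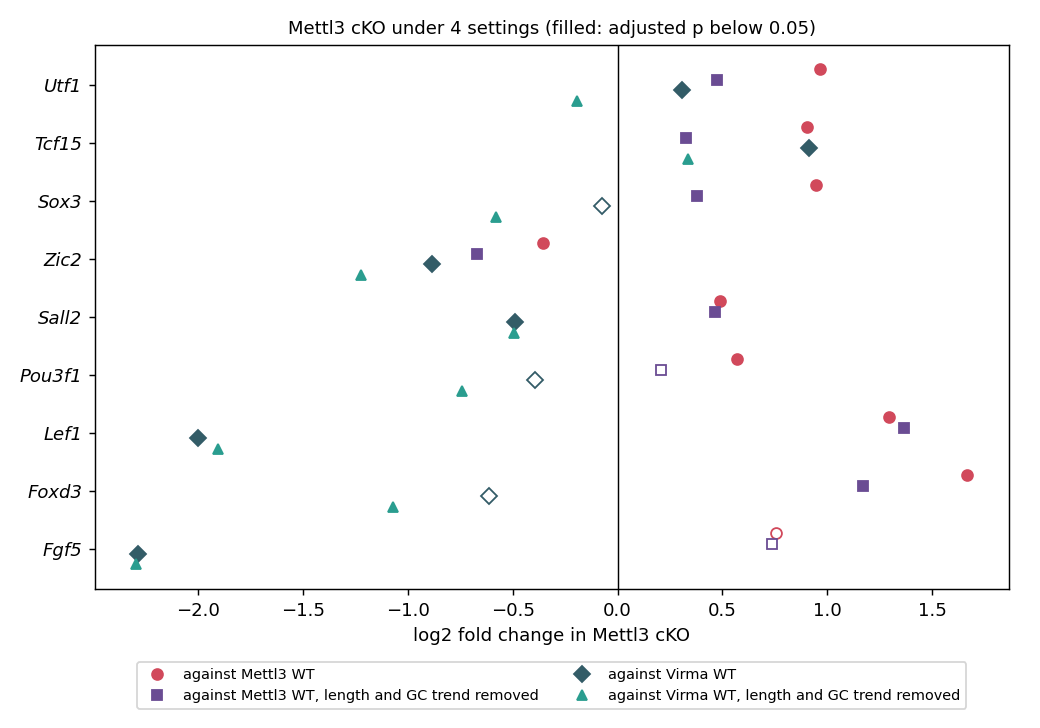
Log2 fold change of the 9 tested members in Mettl3 cKO, against Mettl3 WT or Virma WT, each with and without removal of the length and GC trend; filled points passed the edgeR test. Tcf15 lies right of 0 and Zic2 left of 0 at all 4 settings, whereas Fgf5, Lef1, Foxd3, Sall2, Pou3f1 and Sox3 lie on opposite sides of 0 for the 2 controls.

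The third comparison sets Virma cKO against Virma WT. Here 4 of the 9 members tested were lower in Virma cKO, 1 was higher and 4 were not called, with a median of −0.14 against 0.02 over all genes. Of all genes tested 52.3% were called, 26.1% lower and 26.2% higher. In the same comparison all 12 primitive endoderm markers were lower, with a median of −2.79, and 11 of 17 core and naive pluripotency genes were lower, with a median of −0.51.

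Sall2 showed the clearest fall. It had 23.8 and 23.3 CPM in Virma cKO, against 34.7 and 37.3 CPM in Virma WT, and fell by 0.61 ± 0.10 (edgeR adjusted p = 1.58e-05). Fgf5 had 38 and 38 counts in Virma cKO, against 68 and 66 counts in Virma WT (−0.80 ± 0.33, edgeR adjusted p = 0.0436). Tcf15 had 47.6 and 44.7 CPM in Virma cKO, against 55.7 and 52.9 CPM in Virma WT (−0.24 ± 0.07, edgeR adjusted p = 0.00797). Utf1 had 92.7 and 92.9 CPM in Virma cKO, against 99.5 and 108 CPM in Virma WT (−0.16 ± 0.06, edgeR adjusted p = 0.0268). In all 4 genes the libraries of the groups did not overlap, but the differences of Tcf15 and Utf1 were small.

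Pou3f1 was the member that rose: it had 11.5 and 10.8 CPM in Virma cKO, against 7.16 and 7.58 CPM in Virma WT (0.59 ± 0.18, edgeR adjusted p = 0.00902). The remaining members did not pass. Lef1 had 144 and 145 counts in Virma cKO, against 150 and 158 counts in Virma WT (−0.08 ± 0.22). Foxd3 had 41 and 38 counts in Virma cKO, against 40 and 39 counts in Virma WT (0.04 ± 0.35). Sox3 had 15.2 and 14.5 CPM in Virma cKO, against 14.9 and 15.7 CPM in Virma WT (−0.05 ± 0.13), and Zic2 had 18.8 and 16.5 CPM, against 19.3 and 19.6 CPM (−0.14 ± 0.12). Otx2, not tested, had 5 and 5 counts in Virma cKO, against 10 and 9 counts in Virma WT.

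The calls here rested on the method. With DESeq2 only Sall2 passed, and Fgf5 (DESeq2 adjusted p = 0.277), Pou3f1 (0.128), Utf1 (0.119) and Tcf15 (0.0532) did not; scaled by total counts, which moved the median of all genes to 0.15, only Sall2 and Pou3f1 passed. Without replicate 1 of Virma WT 2 members passed, Sall2 and Utf1, and without replicate 2 it was 3, Sall2, Tcf15 and Pou3f1. All 13 fibroblast markers were higher in Virma cKO, with a summed level of 1120 and 1110 CPM, against 491 and 490 CPM in Virma WT, and their part in the members' values was not tested.

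**Figure D4:**
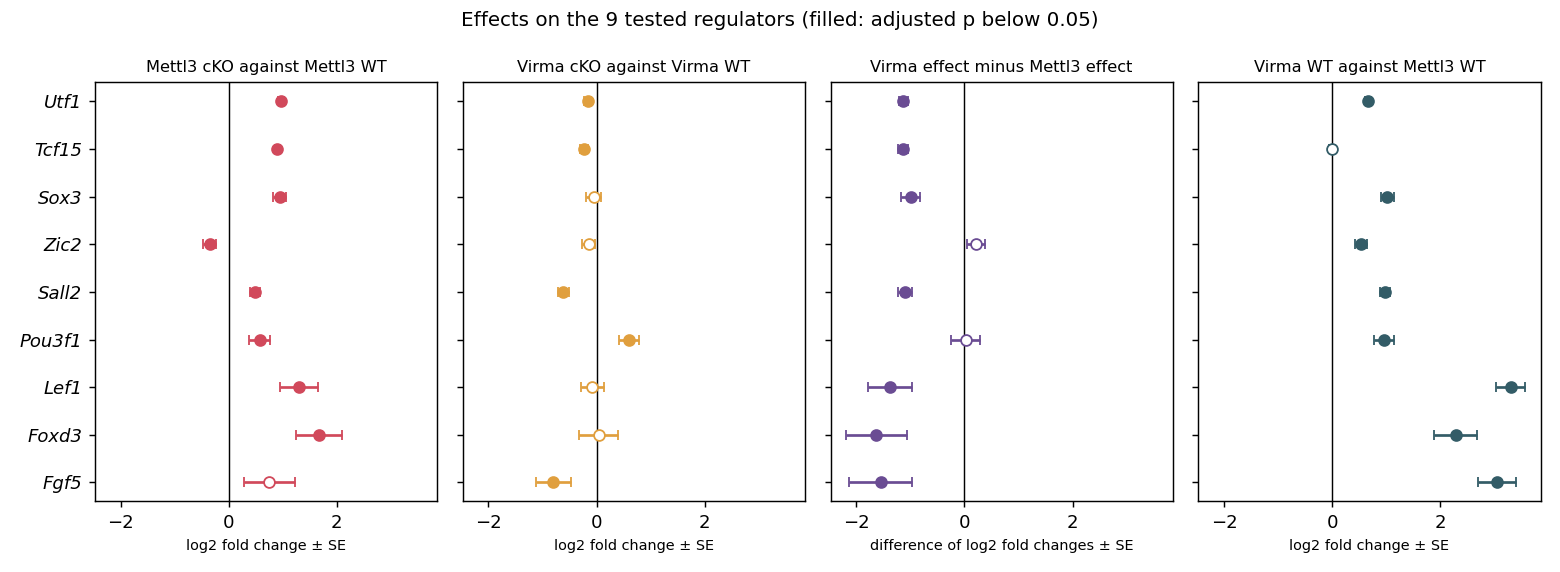
Log2 fold change ± SE (edgeR) of the 9 tested members in the knockout comparisons, the difference of the knockout effects, and Virma WT against Mettl3 WT; filled points passed at an adjusted p below 0.05. Changes in Mettl3 cKO lie mostly right of 0, those in Virma cKO between −0.80 and 0.59, and Lef1 and Fgf5 differ most between the WT groups.

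Whether the knockout effects differ between the lines was tested as the Virma effect minus the Mettl3 effect. In 7 of the 9 members tested the difference was below 0 and passed, in 0 it was above 0 and passed, and the median was −1.13; of all genes tested 39.1% passed, 21.2% below 0 and 17.9% above. Utf1 stood at −1.13 ± 0.08 (edgeR adjusted p = 7.89e-11), Tcf15 at −1.14 ± 0.09 (adjusted p = 4.08e-10), Sall2 at −1.10 ± 0.13 (adjusted p = 4.82e-07) and Sox3 at −1.0 ± 0.18 (adjusted p = 0.00011). For these 4 genes the difference passed in every alternative run. Foxd3 (−1.63 ± 0.56), Fgf5 (−1.55 ± 0.57) and Lef1 (−1.37 ± 0.41) also passed, with edgeR adjusted p of 0.0232, 0.0348 and 0.00989, but lost their calls in some runs that left out 1 library. All values stayed below 0 over the alternatives, from −2.29 to −1.18 for Foxd3, −1.88 to −1.13 for Fgf5 and −2.32 to −0.81 for Lef1. Foxd3 did not pass without replicate 1 of Mettl3 WT or without any 1 library of Mettl3 cKO or Virma WT (edgeR adjusted p = 0.0538 to 0.0854). Fgf5 did not pass without replicate 1 of Mettl3 cKO or either Virma WT library (0.102 to 0.246), nor Lef1 without replicate 2 of Mettl3 WT (−0.81, 0.0525) or of Mettl3 cKO (−1.12, 0.101). Lef1 stood at −2.32 without replicate 1 of Mettl3 WT. Pou3f1 (0.02 ± 0.27) and Zic2 (0.21 ± 0.17) did not pass. Since this value contains the Mettl3 WT libraries, in which 7 members were lowest, it is not independent of the comparisons above. Genes in the top 5% of GC content passed below 0 in 33.2% and above 0 in 4.56%, and with the length and GC trend removed the values were −0.70 for Utf1, −0.64 for Tcf15 and −0.60 for Sox3, all still past the test, while Foxd3 (−1.28) was not.

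The wider set of formative and primed genes was split in Mettl3 cKO, where most members were higher. Of 21 tested, 7 were higher and 7 lower in Mettl3 cKO than in Mettl3 WT (median −0.07), led by the ETS factor Etv4 (0.79 ± 0.04), Zic5 (−0.68 ± 0.14), Sox4 (−0.57 ± 0.04) and the Nodal co-receptor Tdgf1 (−0.56 ± 0.04). In Virma cKO 5 were higher and 10 lower than in Virma WT (median −0.34), led by the DNA methyltransferase family genes Dnmt3l (−1.60 ± 0.06) and Dnmt3b (−1.35 ± 0.04), with the homeobox gene Nkx1-2 (−1.49 ± 0.17) and Tdgf1 (−1.18 ± 0.06). Between the controls 13 were higher and 2 lower in Virma WT than in Mettl3 WT (median 0.31), with Nkx1-2 at 1.72 ± 0.14, the cadherin Cdh2 at 1.43 ± 0.14, and the Nodal antagonists Lefty1 and Lefty2 at 1.17 ± 0.04 and 0.97 ± 0.05 (all with edgeR adjusted p below 0.05). For the difference of effects 14 passed below 0 and 4 above (median −0.39). Calls over all genes tested were split in Mettl3 cKO too, at 27.1% higher and 28.0% lower. They were 26.2% higher and 26.1% lower in Virma cKO, and 25.4% higher and 22.2% lower between the controls. For the difference of effects 21.2% of all genes passed below 0 and 17.9% above. In Virma cKO, between the controls and for the difference, most calls of the wider set lay in the members' direction. This was not particular to that set. FGF and ERK genes had 5 higher and 8 lower in Virma cKO, and 11 higher and 3 lower between the controls. For the difference 10 of them passed below 0 and 2 above. Core and naive pluripotency genes leaned so in Virma cKO (2 higher, 11 lower), but not between the controls (5 higher, 5 lower).

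Among 16 tested paralogs of the members, 2 were higher and 6 lower in Mettl3 cKO, and 3 higher and 7 lower in Virma cKO, each against its WT. Zic5, a relative of Zic2, fell by 0.68 ± 0.14 in Mettl3 cKO. Of the other TCF/LEF factors, Tcf7l2 fell by 0.88 ± 0.11 and Tcf7l1 by 0.37 ± 0.04 in Mettl3 cKO, whereas Tcf7 rose by 0.30 ± 0.05. The SALL relatives Sall1 (−0.73 ± 0.07) and Sall3 (−0.61 ± 0.16) fell in Virma cKO as Sall2 did. In Mettl3 cKO, where Sall2 rose, Sall1 was at 81.6 CPM, against 99.6 CPM in Mettl3 WT. Between the controls Sall1 was lower in Virma WT (−0.72 ± 0.05), whereas Sall3 (1.5 ± 0.14) was higher, as was Sall2. Sox2, the relative of Sox3 that marks naive cells as well, was at 51.5 CPM in Mettl3 cKO, against 61.6 CPM in Mettl3 WT, and fell by 0.26 where Sox3 rose. Fgf4, the FGF ligand of the inner cell mass, was at 17.8 CPM in Virma cKO, against 27.5 CPM in Virma WT, and fell by 0.63 ± 0.11.

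In the pathways around the members, Wnt and FGF genes also moved both ways. Of 14 Wnt genes 4 were higher and 4 lower in each knockout comparison, near the shares over all genes tested. Those shares were 27.1% higher and 28.0% lower in Mettl3 cKO, and 26.2% higher and 26.1% lower in Virma cKO. The Wnt-induced factor Sp5 rose by 2.89 ± 0.19 in Mettl3 cKO and by 1.81 ± 0.14 in Virma cKO, each against its WT, and like Lef1 it was higher in Virma WT than in Mettl3 WT (2.35 ± 0.20). The Wnt inhibitor Dkk1, also a visceral endoderm gene, fell by 3.77 ± 0.16 in Virma cKO. Of 15 FGF and ERK genes tested, 6 were higher and 3 lower in Mettl3 cKO, with Etv4 up and the receptor Fgfr2 lower (−0.56 ± 0.06). In Virma cKO 5 were higher and 8 lower, with Fgfr2 at −1.29 ± 0.08 and the immediate early gene Egr1 at −0.91 ± 0.06. Spry2 was also lower (−0.79 ± 0.08), whereas Spred1 was higher (0.64 ± 0.06). Core and naive pluripotency genes had 5 higher and 8 lower of 17 in Mettl3 cKO (median −0.23), where most members were higher.

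The genes nearest to each member in pattern, by the Euclidean distance between centred log2 CPM profiles over the 8 libraries and among 12860 candidates, were Nefh (0.17) and Med29 (0.18) for Utf1, Fam171a2 (0.20) for Tcf15, Nr6a1 (0.19) for Zic2, Tmem88 (0.28) for Sox3, Gldc (0.28) for Sall2 and Zfp934 (0.30) for Pou3f1. The scarce members had no neighbour as near, with Il17d at 0.70 for Foxd3, Cxcl12 at 0.80 for Fgf5 and Hoxc8 at 1.16 for Lef1. No member was the nearest gene of another.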

How the data were processed

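RNA of 8 libraries in 4 groups was analysed from the deposited table of raw counts per gene symbol, which the authors made from total RNA libraries prepared, per the labels' protocols, with a SMARTer stranded and a VAHTS universal kit; no source used here assigns kits to libraries. Per the submitters' processing notes STAR 2.7.11b, Subread, Trim Galore, DESeq2 and FastQC 0.12.1 were used with mm39; how strand and multiply placed reads were handled, and the annotation, are unknown from the sources used here. Of 21812 genes, 3527 had no count.

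Groups came from the sample titles. The test was edgeR's quasi-likelihood test (version 4.0.16, under R 4.3.3) after robust dispersion estimates, TMM scaling, filterByExpr over the 4 groups and Benjamini-Hochberg adjustment over 14229 genes with a threshold of 0.05. The Virma cKO pair entered as its rounded mean, leaving 3 residual degrees of freedom; its spread is taken to equal that of the other groups. CPM were scaled with TMM factors of the 8 libraries, and SE were derived from the F statistic. Transcript features were read from GENCODE M21 (GRCm38), matched directly for 21144 symbols and through older names for 28; 640 did not match, and 98.1% of tested genes had values. The length and GC trend was a loess surface (span 0.5) per library, entered as offsets. The script was tested on simulated counts.

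Members, lists and tests were chosen with earlier results of these data known. Named genes are all members, Mettl3 and Virma, up to 4 called genes per list with the largest change and an average log2 CPM no lower than 2, tested paralogs, and the nearest genes in pattern with an average of 0 or more, without predicted genes. Pou5f1, Hes5, Sox1 and Pax6 were named after their values were seen. Alternatives were DESeq2 1.42.0, its size factors, total-count scaling, other low-count filters, 8 separate libraries, a replicate block, trend removal, single lines, Virma WT as control for Mettl3 cKO, and leaving out each library.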

Additional observations from a re-analysis of the deposited data

Results flagged for a closer look

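The knockout effect differed between the lines in 7 members by the test of the difference itself (edgeR, Virma effect minus Mettl3 effect, log2). It also differed in 39.1% of all genes tested, 21.2% below 0 and 17.9% above. The values were −1.14 for Tcf15, −1.37 for Lef1, −1.63 for Foxd3, −1.55 for Fgf5, −1.13 for Utf1, −1.10 for Sall2 and −1.0 for Sox3. These values contain the Mettl3 WT libraries, which lay below the other 6 libraries in all of these members except Tcf15. A difference between knockout effects therefore cannot be told apart from a low level in that control pair. In Tcf15, Utf1, Sall2, Fgf5 and Lef1 both Mettl3 cKO libraries were above both Mettl3 WT libraries, and both Virma cKO libraries below both Virma WT libraries. Of these, Lef1 did not pass in Virma cKO (−0.08, edgeR adjusted p = 0.789), nor Fgf5 in Mettl3 cKO (edgeR adjusted p = 0.183). The Virma cKO pair counted as 1 sample in these tests. In Foxd3 and Sox3 the Virma cKO and Virma WT libraries overlapped.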

How the results depend on the processing

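The number of members called in Mettl3 cKO against Mettl3 WT (8) ranged from 6 to 9 over the alternatives, in Virma WT against Mettl3 WT it was 8 in each, and for the difference of effects (7) it ranged from 5 to 8. In Virma cKO against Virma WT (5) it was 1 with DESeq2 and 2 with total-count scaling, and 2 to 5 when single libraries were left out. With total-count scaling 65.4% of calls in that comparison were higher, against 50% with TMM factors, and for the difference of effects 60.3% against 45.8%. DESeq2 called 3593 genes for the difference of effects, against 5569 with edgeR, and 4493 between the WT groups, against 6773. With the replicate block the counts of members were 8, 5, 7 and 8 in the order Mettl3, Virma, difference and WT groups, as without it, and with the block and trend removal 7, 5, 8 and 8; same-numbered libraries share only a number, and their deviations correlated at −0.027 to 0.186. With Virma WT as control for Mettl3 cKO, Fgf5 (−2.29), Pou3f1 (−0.39), Foxd3 (−0.61), Lef1 (−2.0), Sall2 (−0.49) and Sox3 (−0.075) changed sign; with the trend removed as well they stood at −2.29, −0.74, −1.07, −1.90, −0.49 and −0.58, and Utf1 at −0.19. The cause was not tested. DESeq2 gave no adjusted p for the difference of effects in Fgf5 and Foxd3. The median level per length (3.23 RPKM) was 3.26 with total-count scaling and 3.13 with the union of exons as length, a setting added after the data were seen. Low counts limit Otx2 (3 to 10 per library), Foxd3 (5 to 41), Fgf5 (8 to 68) and, in the Mettl3 line, Lef1 (8 to 44).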

Other observations

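The letters GGACT, a frequent form of the m6A consensus, were counted in the longest annotated transcript of each member. Fgf5 has 0, as do 6.43% of tested genes. Lef1 and Tcf15 have 1 each, Utf1 and Foxd3 2 each, Otx2, Zic2 and Sox3 3 each, Pou3f1 5 and Sall2 6. Per kilobase Utf1 holds the most (1.63) and, of those with any, Lef1 the fewest (0.274), against a median of 1.05 over tested genes. These are counts of letters, and methylation was not measured in the data used here.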
